A study of Arabidopsis thaliana with 11 samples.

Results

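The early-stage sort of the Arabidopsis thaliana stomatal lineage (SSY) was set against the sort of the whole epidermis (ML1Y), gene by gene. A gene was taken when its deposited log2 value was at least 3.32, which is 10 on the linear scale, in 2 or more of the 5 SSY and ML1Y libraries, and 29049 of the 33602 genes in the table met this. At that edge, AT1G26860 was just inside with a second-highest value of 3.32, and AT5G55507 was just outside with 3.3199. SSY is the line SPCHp::SPCH-YFP in Col, a fusion of the protein SPCH with a yellow fluorescent protein under the SPCH promoter, and had 3 libraries that the labels call meristemoid mother cells and young meristemoids. ML1Y is the line ML1p::YFP-RCI2A in Col, a membrane-bound yellow fluorescent protein under the epidermal ML1 promoter, and had 2 libraries. The other 6 libraries came from later points of the lineage, 2 each for MG (MUTEp::nucGFP, middle precursors), FGF (FAMAp::GFP-FAMA, late precursors) and E1728G (an enhancer trap line, mature stomata), and are used here as a second reference. All lines carried a fluorescent transgene, and all libraries came from protoplasts of the aerial tissue of 10-day-old seedlings kept at 25 °C under long days, digested for 2 h and sorted by fluorescence. Whether the libraries of a line came from separate sowings or sorts is not stated. P-values therefore measure the spread between libraries, which may be technical and which the fit pools, per gene, over all 5 groups.

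Stomata arise by a short series of divisions in the young leaf epidermis. The basic helix-loop-helix factor SPCH starts the lineage and drives the asymmetric divisions of the meristemoid, MUTE ends those divisions and makes the guard mother cell, and FAMA governs the last division and the fate of the guard cells. Secreted peptides of the EPF family and receptors of the ERECTA family, with the receptor-like protein TMM, space the lineage, and POLAR and the BRX family mark or organise the cell pole before an asymmetric division. Epidermal pavement cells do not carry out much photosynthesis, whereas mesophyll cells do.

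Values are the authors' normalized log2 values, so read depth is unknown and differences are given in log2 units. The SSY libraries varied more among themselves than the ML1Y libraries. Their scaled root mean square distance from the group mean was 0.895 to 0.92, against 0.454 in ML1Y. Their interquartile range over genes was also narrower, at 2.08 to 2.26, against 2.84 to 2.87 in ML1Y. SSY replicate 1 had a higher rank correlation with FGF replicate 1 (0.803) than with its nearest SSY library (0.787). The scaled distance was 0.607 to 0.744 in the later groups. Because the fit shares 1 spread per gene over all groups, standard errors and p-values can be too small for genes that varied most in SSY. What part the spread within SSY had in the results was not tested, and the count of calls without each library is given with the counts.

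The sort was first read against genes of the early lineage. Its own gene did not stand out: SPCH (AT5G53210) had 5.46, 6.12 and 5.15 in SSY, against 6.36 and 5.92 in ML1Y. The groups overlapped, and the difference of -0.56 ± 0.62 (± the standard error of the fit, here and below) had a limma adjusted p of 0.644. Transcripts of the SPCH-YFP transgene and of native SPCH cannot be told apart in these values. ATML1 (AT4G21750), the epidermal homeodomain gene, had 7.66, 11.21 and 7.68 in SSY and 8.48 and 8.46 in ML1Y, with 1 SSY library far above the others (adjusted p = 0.85). MUTE (AT3G06120) had 4.56, 4.80 and 5.24 in SSY and 4.88 and 4.21 in ML1Y (adjusted p = 0.79).

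Of the polarity and receptor genes of the early lineage, POLAR, ERL2, ATBRXL2 and TMM lay higher in all SSY libraries without passing the test. ER was called lower and BASL lay lower. POLAR (AT4G31805), a polarity protein of meristemoids, had 7.85, 6.91 and 10.01 in SSY, against 5.53 and 5.63 in ML1Y (2.68 ± 0.81, adjusted p = 0.0702). ERL2 (AT5G07180), a receptor kinase of the ERECTA family, had 9.69, 9.81 and 9.34 in SSY, against 7.18 and 7.59 in ML1Y (2.22 ± 0.68, adjusted p = 0.0746). ATBRXL2 (AT3G14000), of the BRX family, had 8.56, 8.33 and 9.84 in SSY, against 6.84 and 6.41 in ML1Y (2.28 ± 0.76, adjusted p = 0.1). TMM (AT1G80080) was barely separate, with 8.43, 9.96 and 10.32 in SSY, against 8.22 and 8.41 in ML1Y (1.26 ± 0.92, adjusted p = 0.472). ERL1, a relative of ERL2, differed by 0.38 (adjusted p = 0.73). ER (AT2G26330), the founding member of the ERECTA family, fell, with 6.67, 6.89 and 6.96 in SSY, against 8.76 and 9.86 in ML1Y (-2.47 ± 0.59, adjusted p = 0.0241). Of the 17 early lineage genes tested, 0 were called higher and 1 was called lower. All SSY values lay above both ML1Y values in 9 of the 17 and below both in 3. EPF2 did not reach the filter. Over all genes tested, 0.837% were called higher and 4.94% lower. Without overlap 17.57% of them lay higher and 21.99% lay lower. BASL, another polarity gene, had 3.96, 4.63 and 4.08 in SSY and 4.79 and 4.82 in ML1Y (adjusted p = 0.552).

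**Figure D1:**
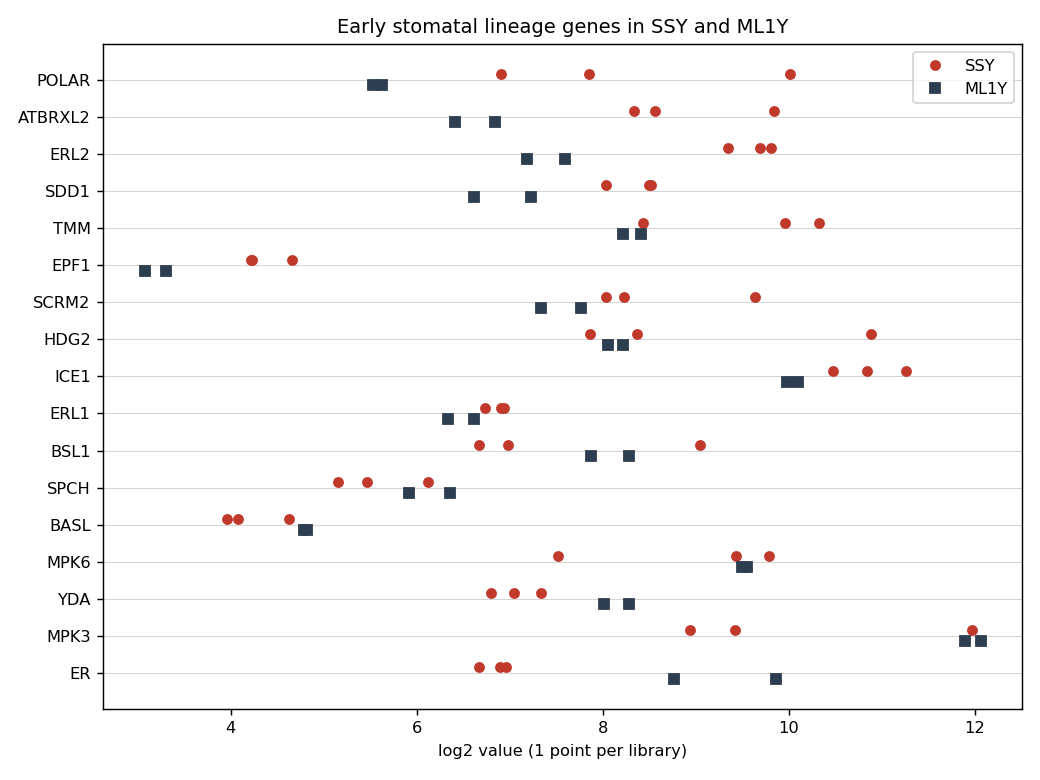
Log2 values (horizontal axis) of the 17 early stomatal lineage genes tested, with 1 red circle per SSY library and 1 dark square per ML1Y library, ordered by the difference. All SSY points of POLAR, ATBRXL2 and ERL2 lie right of both ML1Y points, the points of SPCH overlap, and those of ER lie left.

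Over the whole table, 243 genes were called higher and 1434 were called lower in SSY than in ML1Y at a limma adjusted p under 0.05, in a fit of all 11 libraries. These were 0.837% and 4.94% of the genes tested. The counts of called list and family members below are to be read beside these shares. Without overlap between the libraries, 5105 genes lay higher and 6389 lay lower. With only the 5 SSY and ML1Y libraries in the fit, 33 genes (0.114%) were called higher and 899 (3.09%) lower. Without ML1Y replicate 1 or ML1Y replicate 2, 23 and 18 genes were called higher and 432 and 285 lower, while 509 were called higher without SSY replicate 1. Each of the genes called higher below, other than 12 described first, lost its call in at least 1 of the 5 fits that left out a library.

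Fewer of the genes that rose than of all genes tested had a symbol. Their group means had a median of 6.26 in SSY and 4.04 in ML1Y, against 5.60 in SSY and 5.67 in ML1Y over all genes tested. In 63 of the 243 the ML1Y mean was below the filter value, as it was in 1718 of all 29049 tested. The genes that fell had medians of 5.45 in SSY and 8.39 in ML1Y. Only 25.1% of the genes called higher had a symbol, against 47.5% of those called lower and 34.9% of all tested. Pseudogenes of both annotated classes made up 18.9% of the genes called higher (46 genes), 1.81% of those called lower and 13.2% of all tested. An SSY mean of 10 or more was found in 20 of the 243 and in 1101 of all 29049 tested. SSY replicate 3 had the highest of the 3 SSY values in 137 of the 243 genes, and SSY replicate 1 had the lowest in 129. The median gap between the highest and lowest SSY library was 1.39 in these genes and 1.19 over all tested.

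**Figure D2:**
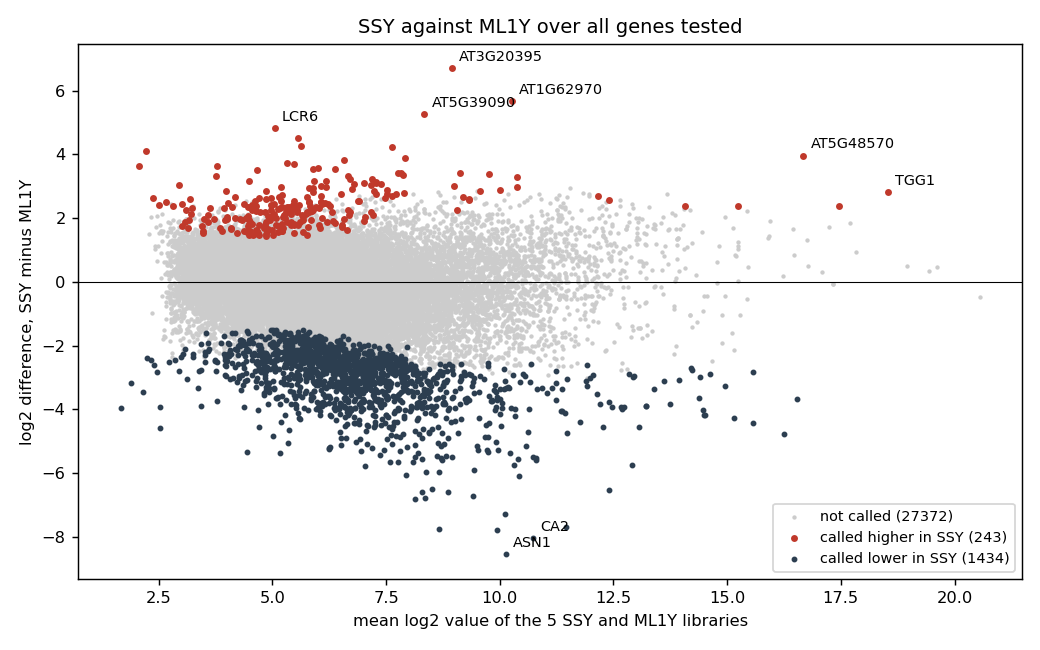
Log2 difference of SSY minus ML1Y (vertical axis) against the mean log2 value of the 5 libraries (horizontal axis), 1 point per gene tested; red points are the 243 called higher, dark points the 1434 called lower, grey points the rest. AT3G20395, AT1G62970 and AT5G39090 lie above the other red points, and TGG1, HSP90.1 (not labelled in the plot) and AT5G48570 are the red points of the highest level.

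Of the genes called higher, 12 (0.0413% of those tested) passed in the 11-library fit, in the 5-library fit and in each fit that left out 1 of the 5 libraries. Of those called lower, 217 (0.747%) did so. When a ML1Y library is left out, the remaining one is assumed to vary like the other groups. None of the 12 genes overlapped between SSY and any of the 8 other libraries. LCR6, LCR20, AT5G41505, AT2G35215 and AT3G55258 had both ML1Y values below the filter value. They met the filter through their SSY values alone, so for them the filter itself favoured a rise.

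A RING/U-box gene had the largest rise. AT3G20395, annotated as a RING/U-box superfamily protein, a fold found in ubiquitin ligases, had 11.01, 12.03 and 11.83 in SSY, against 5.11 and 4.73 in ML1Y. It was 104-fold higher (6.70 ± 0.52, limma adjusted p = 7.01e-05), and the 6 later libraries lay between 4.61 and 4.97. AT1G62970, annotated with a DnaJ domain, the part of a co-chaperone that binds HSP70, had 12.18, 12.81 and 12.61 in SSY, against 6.68 and 7.03 in ML1Y. It was 51.3-fold higher (5.68 ± 0.64, adjusted p = 0.00024), with 7.20 to 8.56 in the later libraries. AT5G39090, of the HXXXD acyltransferases, enzymes that join acyl groups to plant metabolites, had 10.15, 10.26 and 10.93 in SSY, against 5.38 and 4.98 in ML1Y (5.27 ± 0.59, adjusted p = 0.00024). Its later libraries, at 5.97 to 8.15, lay between the groups.

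The defensin-like genes LCR6 and LCR20 code for small cysteine-rich secreted peptides, a class best known from defence and from pollen and stigma signalling. LCR6 (AT5G47077) had 5.18, 7.49 and 8.26 in SSY, against 1.83 and 2.48 in ML1Y (4.82 ± 0.70, adjusted p = 0.00121). LCR20 (AT5G47075) had 5.85, 7.72 and 8.54 in SSY, against 3.13 and 2.59 in ML1Y (4.51 ± 0.64, adjusted p = 0.001). They are neighbours in the genome and followed the same order over the SSY libraries, with replicate 1 lowest and replicate 3 highest. Whether reads were shared between the copies was not tested. Of 44 defensin-like genes tested, these 2 were called higher and 0 lower, with a median difference of 0.57, against 0.05 over all genes tested. The shares over all genes tested were 0.837% called higher and 4.94% called lower.

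The other members of the 12 belong to different classes. AT2G33010, with a ubiquitin-associated domain, had 9.90, 7.99 and 10.05 in SSY, against 4.60 and 5.56 in ML1Y (4.24 ± 0.63, adjusted p = 0.00148). MCT1 (AT1G37140), an RNA-binding protein with the C-terminal motif of the MEI2 family, had 7.78, 6.98 and 7.36 in SSY, against 4.39 and 4.41 in ML1Y (2.97 ± 0.42, adjusted p = 0.000958). MEE48 (AT4G14080), a glycosyl hydrolase of the family that holds the callose-degrading glucanases, had 6.83, 6.80 and 7.55 in SSY, against 4.29 and 3.97 in ML1Y (2.93 ± 0.43, adjusted p = 0.00134). MCT1 and MEE48 lay within a unit of each other in all 3 SSY libraries, and their later libraries did not exceed 4.48 and 4.65. The transcripts AT5G41505 (an annotated pseudogene), AT4G04315 (a non-coding RNA), AT2G35215 and AT3G55258 (a transcribed pseudogene) rose by 3.75, 3.54, 3.18 and 3.03. AT3G55258 had the lowest level of the 12, with 3.97, 4.15 and 4.33 in SSY, against 1.14 and 1.10 in ML1Y.

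**Figure D3:**
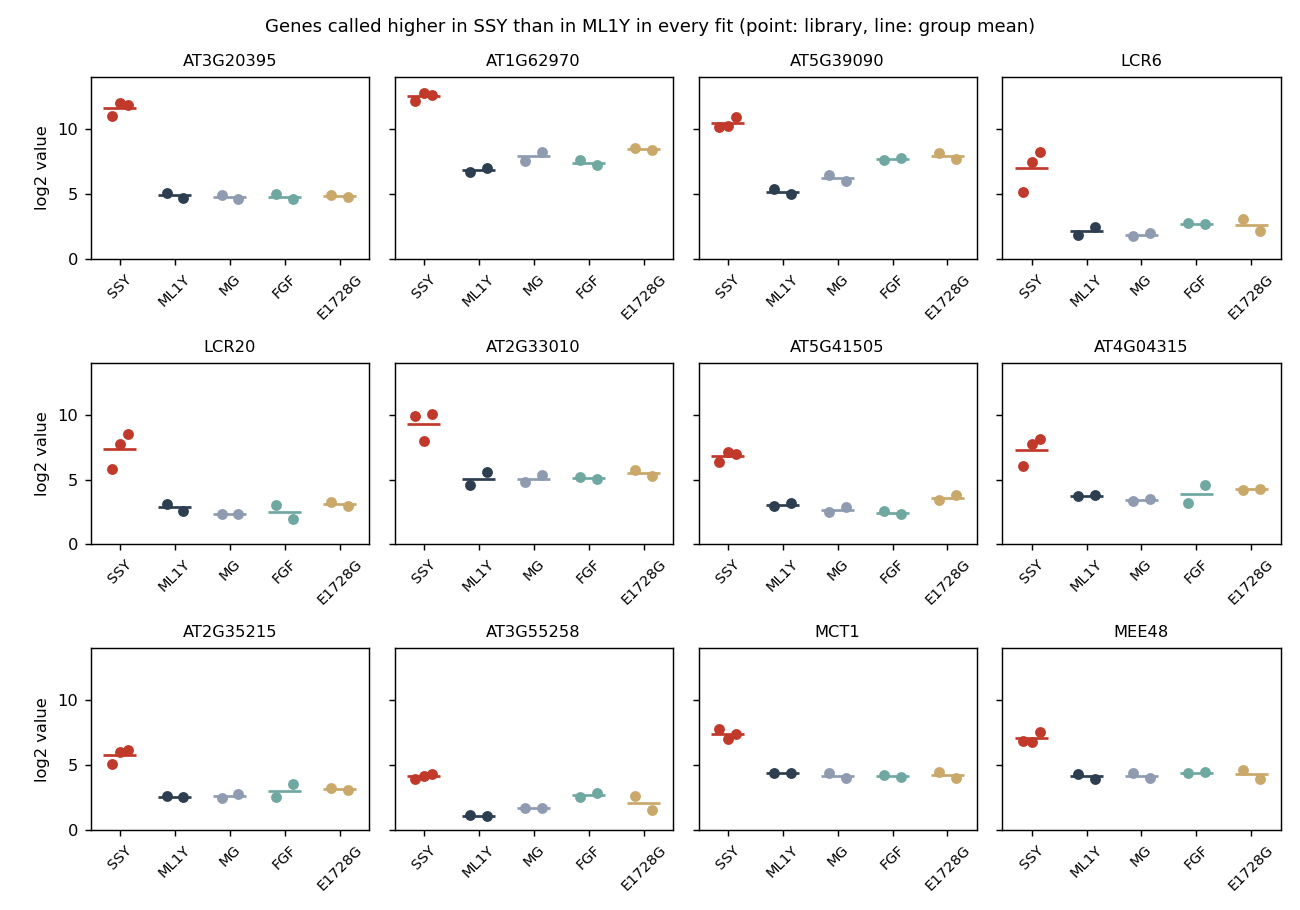
Log2 values (vertical axis) of the 12 genes called higher in every fit, 1 panel per gene; each point is a library and each line a group mean, for SSY, ML1Y, MG, FGF and E1728G from left to right. In every panel the 3 SSY points lie above all 8 others, and AT5G39090 has later libraries, at 5.97 to 8.15, above both ML1Y libraries.

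Some of the genes called are neighbours. Among the 243 genes called higher, 7 pairs of loci follow each other in the table, LCR6 and LCR20 included, and among the 1434 called lower 167 pairs do. One pair, AT3G24330 and the non-coding RNA AT3G24332, had the same values in each library (5.77, 5.26 and 5.55 in SSY, against 4.18 and 3.67 in ML1Y), so these are 1 signal listed under 2 loci. AT4G04313, a pseudogene next to AT4G04315, had 9.98, 8.17 and 10.26 in SSY, against 5.74 and 5.44 in ML1Y (3.88 ± 0.63, adjusted p = 0.00254). The B3 family genes AT4G31640 and AT4G31650, which code for DNA-binding proteins, rose by 3.34 ± 0.73 and 3.05 ± 0.73 (adjusted p = 0.015 and 0.0245), with SSY replicate 1 lowest in both. The C1 domain genes AT1G44020 and AT1G44030 rose by 1.95 and 2.41. Description classes picked out after their values were seen gave 6 of 135 C1 domain genes called higher and 2 lower, 4 of 62 peroxidases higher and 2 lower, 3 of 86 invertase or pectin methylesterase inhibitors higher and 0 lower, and 3 of 24 B3 genes higher and 0 lower, beside 0.837% higher and 4.94% lower over all genes tested. For the other pairs, whether neighbours share reads was not tested.

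Overlapping genes set a further limit, since their reads cannot be told apart without strand information. Of the genes named in the text, POLAR, FZR3, AUR2, FRK1, PLIM2c, NSI, Hop3, CYP81D11, ABCC9, ASN1, GOX1, CYCD3;2, TCH3, AGP10, CYP38 and ABCI8 overlap a gene on the opposite strand in the annotation. RMA1, AT2G35215 and CYCD3;1 overlap one on the same strand.

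Genes of the cell wall and of secreted proteins were among the largest rises with a symbol. EXT4 (AT1G76930), an extensin, a structural glycoprotein of the wall, had 9.85, 7.56 and 9.96 in SSY, against 6.17 and 5.25 in ML1Y (3.41 ± 0.68, limma adjusted p = 0.00881). AGP9 (AT2G14890), an arabinogalactan protein of the cell surface, had 10.92, 10.68 and 10.51 in SSY, against 7.80 and 7.93 in ML1Y (2.84 ± 0.70, adjusted p = 0.0276). TED6 (AT1G43790), known from secondary wall formation in xylem vessels, had 6.51, 8.81 and 5.57 in SSY, against 3.07 and 3.46 in ML1Y (3.70 ± 0.71, adjusted p = 0.00693). Groups did not overlap in these 3 genes, and AGP9 was the most even among the SSY libraries. EXT13 rose by 1.98, so 2 of 7 extensins rose and 0 fell. Of 42 arabinogalactan protein genes, AGP9 rose and AGP2, AGP20 and AGP10 fell, by 3.40, 2.81 and 2.32. Of 30 expansins, which loosen the wall, 0 were called in either direction. These counts stand beside 0.837% called higher and 4.94% called lower over all genes tested.

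TED6 was one of the list of vascular genes. Of 23 xylem and phloem genes, TED6 was called higher and the vessel protease XCP2 lower (-1.96 ± 0.45, limma adjusted p = 0.0188). Their median difference was 0.12, and 0.837% of all genes tested were called higher and 4.94% lower. CESA4, CESA7 and CESA8, the secondary wall cellulose synthases, differed by 0.30, 0.34 and 0.47 (adjusted p from 0.568 to 0.789). PP2-A3 (AT2G26820), of the phloem lectin family, had 8.87, 8.32 and 10.37 in SSY, against 5.99 and 5.58 in ML1Y (3.40 ± 0.61, adjusted p = 0.00478), without overlap. Its relative PP2-A5 was called lower, with 6.67, 4.91 and 6.02 in SSY, against 11.45 and 10.69 in ML1Y (-5.20 ± 0.61, adjusted p = 0.000302).

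A pair of genes for ribosome assembly rose. PPAN (AT5G61770), the counterpart of an assembly factor of the large ribosomal subunit in yeast, had 8.41, 8.92 and 8.25 in SSY, against 5.53 and 5.26 in ML1Y (3.13 ± 0.48, adjusted p = 0.00171). NMD3 (AT2G03820), whose yeast counterpart exports that subunit from the nucleus, had 10.70, 12.14 and 10.66 in SSY, against 8.13 and 8.45 in ML1Y (2.88 ± 0.76, adjusted p = 0.0394). PPAN was called in 4 of the 5 fits that left out a library and NMD3 in 2. A description rule for cytosolic ribosomal proteins caught 8 tested genes only, of which 0 were called higher and 1 lower.

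Chromatin and cell cycle genes gave single rises. CHR18 (AT1G48310), a SNF2-type chromatin remodeller, had 10.05, 10.35 and 11.04 in SSY, against 7.12 and 7.03 in ML1Y (3.41 ± 0.69, adjusted p = 0.00964). FZR3 (AT5G13840), an activator of the anaphase-promoting complex, had 12.24, 11.21 and 11.65 in SSY, against 8.21 and 8.60 in ML1Y (3.30 ± 0.71, adjusted p = 0.0133). TOPII (AT3G23890), the topoisomerase that untangles sister chromatids, had 9.92, 10.77 and 10.42 in SSY, against 7.67 and 7.84 in ML1Y (2.61 ± 0.66, adjusted p = 0.0309). In these genes all SSY values lay above both ML1Y values.

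Of 23 genes of mitosis and cytokinesis, AUR2 (AT2G25880), a mitotic kinase, was the one called higher, with 7.51, 7.72 and 7.36 in SSY, against 5.19 and 5.67 in ML1Y (2.10 ± 0.52, adjusted p = 0.0291), and 0 were called lower. PLE, which bundles microtubules in the division plane, had 7.15, 6.84 and 12.01 in SSY and 6.56 and 6.56 in ML1Y, so that 1 library made most of its difference (adjusted p = 0.31). The B-type cyclin CYCB1;1 had 7.20, 5.20 and 4.88 in SSY and 5.23 and 6.69 in ML1Y, with overlap. The D-type cyclins CYCD3;1 and CYCD3;2, which promote division in young leaves, fell by 2.20 and 2.71 (adjusted p = 0.0123 and 0.0241). Of 22 DNA replication genes, 0 were called, with a median difference of 0.34. Among all genes tested, 0.837% were called higher and 4.94% lower.

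Genes of DNA repair and meiosis had mostly positive differences, none of which passed the test. Of 21 tested, 0 were called in either direction, 20 had a positive difference, against 52.1% of all genes tested, 10 (47.6%) lay higher without overlap and 0 lower, with a median of 0.58. DMC1, a strand exchange protein of meiotic recombination, had 6.66, 8.82 and 6.39 in SSY and 5.81 and 5.68 in ML1Y (adjusted p = 0.218). Among 13 Polycomb genes, which keep genes silent through histone marks, 0 were called, and 5 (38.5%) lay lower and 0 higher without overlap. Over all genes tested, 17.57% lay higher and 21.99% lower without overlap. Among 30 genes of DNA methylation and small RNA silencing 0 were called, with a median of 0.30.

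Several metabolic and membrane genes rose. AKN2 (AT4G39940), a kinase that makes the sulfate donor for glucosinolates and other sulfated compounds, had 7.06, 8.08 and 8.81 in SSY, against 4.60 and 4.93 in ML1Y (3.22 ± 0.53, adjusted p = 0.00301). PM-ANT (AT5G56450), an adenine nucleotide carrier of the plasma membrane, had 9.05, 7.91 and 8.88 in SSY, against 5.75 and 5.96 in ML1Y (2.75 ± 0.48, adjusted p = 0.00404). The aquaporin PIP2;5 (AT3G54820) was the most even, with 10.24, 10.24 and 10.27 in SSY, against 7.62 and 7.58 in ML1Y (adjusted p = 0.0496), and its later libraries ran from 6.38 to 10.65. Its call was lost in each of the 5 fits that left out an SSY or ML1Y library and in the 5-library fit (limma adjusted p = 0.0818). PIP2;5 was not called against the later sorts either (limma adjusted p = 0.12). FRK1 (AT2G19190), a receptor kinase induced by bacterial flagellin, had 6.82, 8.50 and 9.83 in SSY, against 5.49 and 5.56 in ML1Y (2.86 ± 0.72, adjusted p = 0.0308). FRK1 lost its call in 4 of the 5 fits that left out a library. Of 52 receptor-like proteins and 40 cysteine-rich receptor kinases, 0 were called higher, beside 0.837% of all genes tested.

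Transcription factors with rises came from several families. TTG2 (AT2G37260), a WRKY factor of trichomes and seed coat, had 7.89, 7.58 and 10.11 in SSY, against 5.39 and 5.43 in ML1Y (3.12 ± 0.66, adjusted p = 0.0118). It was the 1 trichome gene of 17 called higher, and GL2, the homeodomain factor of trichome growth, had 6.39, 6.12 and 6.11 in SSY and 6.76 and 6.76 in ML1Y (adjusted p = 0.575). MYB101 (AT2G32460), known from pollen tubes, had 7.50, 6.34 and 7.75 in SSY, against 4.75 and 4.77 in ML1Y (2.44 ± 0.51, adjusted p = 0.0111). MYB67 and MYB107 rose by 2.67 and 2.69, so 3 of 119 MYB genes rose, while MYB77 and MYB57 fell. Of the MYB genes 27.7% lay higher without overlap and 9.24% lower, against 17.57% and 21.99% over all genes tested. Called shares over all genes tested were 0.837% higher and 4.94% lower.

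Other families gave few calls. WRKY67 rose by 2.24, and WRKY58 and WRKY18 fell, among 66 WRKY genes. PLIM2c (AT3G61230), a LIM domain protein that bundles actin in pollen, had 4.63, 6.71 and 7.77 in SSY, against 3.39 and 3.40 in ML1Y (2.97 ± 0.66, adjusted p = 0.0161). NAC, LBD, TCP and homeodomain factors had 0 genes called higher and 1, 1, 1 and 2 called lower among 81, 27, 15 and 58. For comparison, 0.837% of all genes tested were called higher and 4.94% lower.

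The same genes were set beside the later sorts, in a comparison that shares the SSY libraries and is therefore not independent. Against the mean of MG, FGF and E1728G, 480 genes (1.65%) were called higher in SSY. That count was 222 without FGF replicate 1, 238 without FGF replicate 2, 259 and 267 without E1728G replicates 2 and 1, 270 without MG replicate 1 and 314 without SSY replicate 2. The differences of EXT4, TED6, PP2-A3, PPAN and TTG2 from the later sorts were 3.80, 3.85, 3.63, 3.06 and 3.06, beside 3.41, 3.70, 3.40, 3.13 and 3.12 from ML1Y. PM-ANT differed by 3.80 ± 0.37 from the later sorts and by 2.75 ± 0.48 from ML1Y. NSI (AT1G32070), an acetyltransferase gene, had 10.16, 9.50 and 10.21 in SSY, against 7.51 and 7.87 in ML1Y and 4.31 to 6.04 in the later libraries, so that ML1Y lay between.

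Another set stood above ML1Y but was not called against the later sorts. TGG1 (AT5G26000), the myrosinase of guard cells and myrosin cells, had 18.64, 20.71 and 19.64 in SSY, against 16.98 and 16.71 in ML1Y (2.82 ± 0.49, limma adjusted p = 0.00376), and its later libraries ran from 16.98 to 20.85. FAMA (AT3G24140) had 12.39, 10.66 and 11.60 in SSY, against 8.88 and 8.30 in ML1Y (2.96 ± 0.74, adjusted p = 0.0309), and 9.82 to 14.90 in the later libraries. RMA1 (AT4G03510), a ubiquitin ligase of the endoplasmic reticulum membrane, had 11.81, 11.29 and 10.21 in SSY, against 8.09 and 7.37 in ML1Y (3.38 ± 0.75, adjusted p = 0.0164), and 9.08 to 10.78 in the later libraries. The differences of TGG1, FAMA and RMA1 from the later mean were 0.29, -0.42 and 1.34 (adjusted p = 0.659, 0.68 and 0.183). Each of the 3 was above both ML1Y libraries in all SSY libraries. The SSY values of TGG1 and FAMA lay inside the range of the later libraries, while RMA1 had 2 of its 3 SSY values above that range. For FAMA the top of that range came from FGF (14.03 and 14.90). Transcripts of the GFP-FAMA transgene of FGF and of native FAMA cannot be told apart in these values. FAMA had 10.60 and 9.82 in MG and 11.50 and 10.98 in E1728G, and the SSY values 12.39 and 11.60 lay above these.

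A transporter and a cytochrome P450 were also not called against the later sorts. ABCG31 (AT2G29940), a transporter of the plasma membrane, had 12.52, 13.49 and 14.28 in SSY, against 10.86 and 10.85 in ML1Y (2.57 ± 0.70, adjusted p = 0.0457), and 11.87 to 14.47 in the later libraries. CYP81D11, a cytochrome P450 of stress responses, had 14.23, 15.77 and 15.05 in SSY, against 12.95 and 12.33 in ML1Y (2.38 ± 0.64, adjusted p = 0.0422), and 12.59 to 15.95 in the later libraries. ABCG31 and CYP81D11 were thus separate from ML1Y but inside the range of the later sorts. Neither was called in the 5-library fit (limma adjusted p = 0.172 and 0.186).

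Chaperones of the heat response were also among the genes called higher. HSP90.1 (AT5G52640) had 18.63, 18.72 and 17.86 in SSY, against 15.70 and 16.34 in ML1Y (2.39 ± 0.65, adjusted p = 0.0439), with 16.13 to 19.06 in the later libraries. Hop3 (AT4G12400), which links HSP70 and HSP90, had 15.80, 16.57 and 16.20 in SSY, against 13.48 and 14.16 in ML1Y (2.37 ± 0.66, adjusted p = 0.049), with 14.64 to 17.98 in the later libraries. AT5G48570, an FKBP-type prolyl isomerase, had 19.05, 19.35 and 16.39 in SSY, against 14.17 and 14.43 in ML1Y (3.96 ± 0.78, adjusted p = 0.00847), with 15.15 to 17.18 in the later libraries. Its replicate 3 lay inside the later range, and the other 2 SSY libraries above it. HSP90.1, Hop3 and AT5G48570 were not called in the 5-library fit (limma adjusted p = 0.101, 0.144 and 0.074). Of the 11 genes of the heat shock list, HSP90.1 was called higher and 0 were called lower, with a median of 1.24. Without overlap 5 (45.5%) lay higher and 0 lower, against 17.57% and 21.99% over all genes tested. HSP21, the heat shock protein of the chloroplast, had 6.13, 6.41 and 5.95 in SSY and 6.39 and 6.50 in ML1Y. The summed level of this list (the log2 of the sum of its linear values) was 19.72 to 20.25 in SSY, against 17.95 to 18.61 in ML1Y. Protoplasting and sorting can induce such genes, and their part in the result was not tested.

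**Figure D4:**
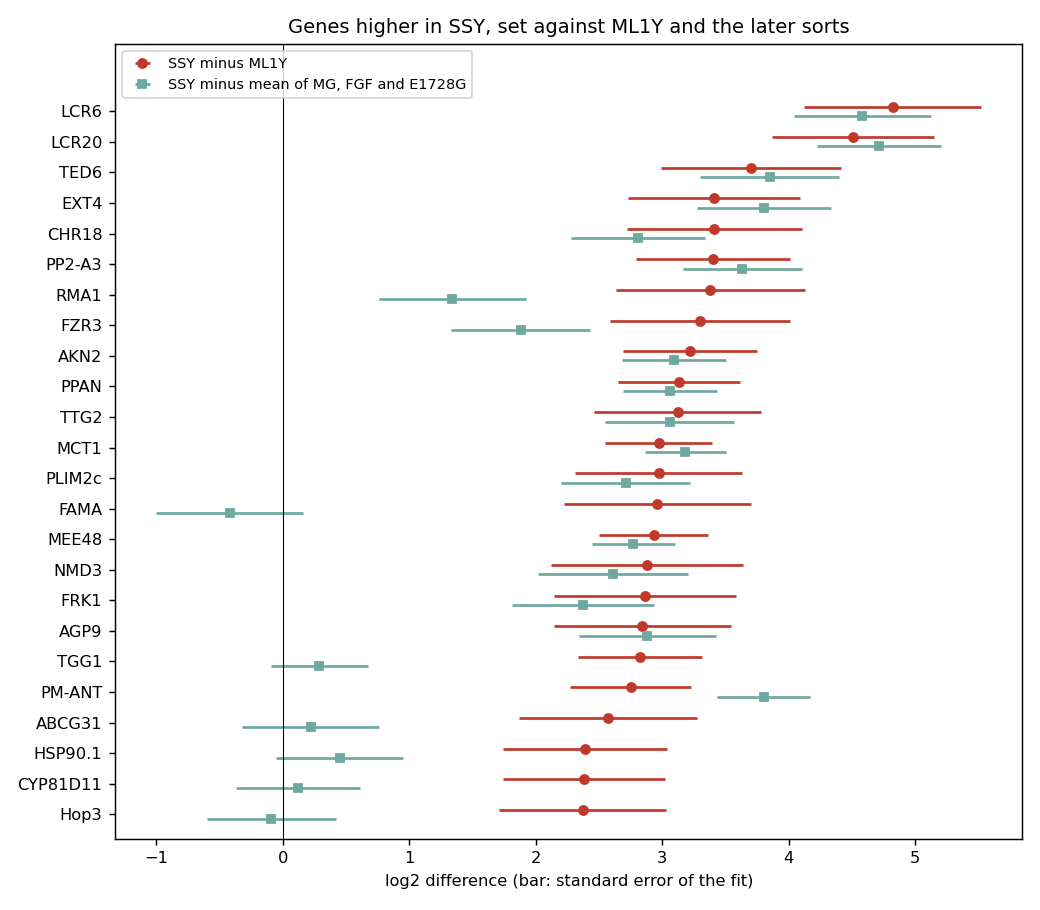
Log2 difference (horizontal axis) of 24 genes called higher in SSY than in ML1Y; red circles are SSY minus ML1Y, green squares SSY minus the mean of MG, FGF and E1728G, and bars the standard error of the fit. FAMA, TGG1, ABCG31, HSP90.1, CYP81D11 and Hop3 have squares between -0.42 and 0.45, while the squares of LCR6 and LCR20 lie at 4.58 and 4.71.

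By family, the genes called higher were spread thin. Over all genes tested, 0.837% were called higher and 4.94% lower, and 17.57% lay higher and 21.99% lower without overlap. The shares without overlap changed with level. Genes with a mean log2 value under 4 had 21.9% higher and 8.98% lower, and those of 4 to 6 had 22.9% and 16.9%. At 6 to 8 the shares were 11.3% and 34.0%, and at 8 to 10 they were 5.69% and 27.3%. At 10 to 12 they were 13.2% and 22.9%, and from 12 up 22.8% and 22.8%, so the change was not steady. Whether the family shares below differ from those of other genes of the same level was not tested. Of 585 F-box proteins, which choose targets for ubiquitin ligases, 7 were called higher and 11 lower, and 23.6% lay higher without overlap and 11.3% lower. Of 499 genes caught by the rule for RING or U-box proteins, 4 were called higher, AT3G20395 and RMA1 among them, and 9 lower. That rule matches those letters anywhere in a description, so other proteins can be counted. Without overlap 69 lay higher and 101 lower. Of 237 genes caught by the rule for cytochromes P450, 4 were called higher and 11 lower, counting the cyclophilin CYP38, which shares the prefix. Among the ABC transporters, ABCG31 and ABCC9 were called higher and ABCF5 and ABCI8 lower. Pentatricopeptide repeat proteins, which process organelle RNA, had 0 of 273 called higher and 10 lower. UDP glycosyltransferases had 0 of 58 higher and 4 lower, and glutathione S-transferases 0 of 39 higher and 1 lower.

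**Figure D5:**
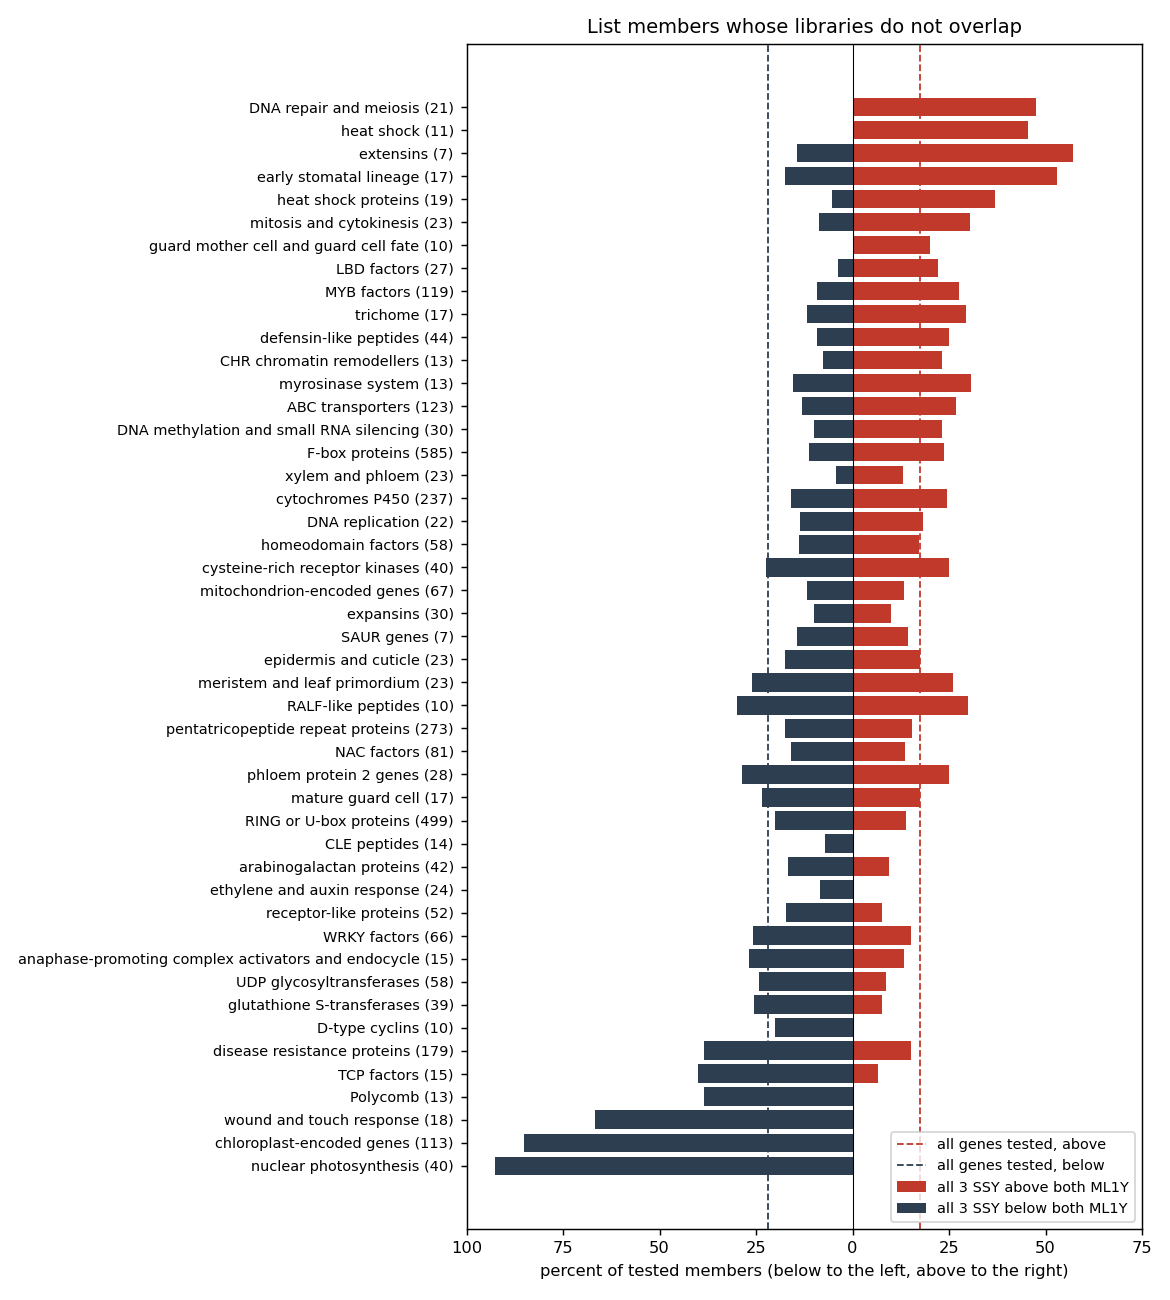
Percent of tested members of the lists and families plotted (number tested in parentheses) whose 3 SSY values all lay above both ML1Y values (red, to the right) or all below (dark, to the left); dashed lines mark all genes tested, at 17.57% and 21.99%. Extensins (57.1% of 7), early stomatal lineage (52.9%), DNA repair and meiosis (47.6%) and heat shock genes (45.5%) are among the lists that extend past the right line. Photosynthesis and wound and touch genes are among those past the left one.

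On the lower side, most genes of the nuclear photosynthesis list were called. All but 6 of the 40 nuclear photosynthesis genes tested were called lower (34, median difference -4.50), as were 59 of 113 chloroplast-encoded genes (median -2.82). The summed level of the nuclear list was 14.23 to 15.18 in SSY, against 18.21 to 18.75 in ML1Y. Outside these lists ASN1 (AT3G47340), an asparagine synthetase, had the largest fall, with 6.53, 6.87 and 6.73 in SSY, against 15.99 and 14.55 in ML1Y (-8.56 ± 0.69, limma adjusted p = 7.01e-05). The carbonic anhydrase CA2, the photorespiratory enzymes GOX1 and HPR, the antenna gene LHB1B1, the aldolase FBA2, the thiamine enzyme THI1 and the dehydrogenase GAPA-2 fell by 8.04, 7.78, 6.60, 7.76, 7.28, 6.83 and 6.72. In bulk sorts, fewer cells of a type and less RNA of that type per cell cannot be told apart.

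Other falls lay outside photosynthesis. Of 179 genes whose description names disease resistance or the NBS-LRR class, 24 (13.4%) were called lower and 0 higher. Over all genes tested, 4.94% were called lower and 0.837% higher. Without overlap 38.5% of the 179 lay lower, beside 21.99% over all genes tested. AT5G41740, of the TIR-NBS-LRR class, had 6.50, 6.51 and 6.86 in SSY, against 11.78 and 11.59 in ML1Y (-5.06 ± 0.71, adjusted p = 0.000966). WRR4 (AT1G56510), a receptor for white rust, and RLM3 (AT4G16990) fell by 4.13 and 3.94. The groups were far apart in AT5G41740, and its difference from the later sorts was -0.79 (adjusted p = 0.391).

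Wound and touch genes lay lower in SSY in most members. All 18 had negative differences, and 4 (22.2%) were called lower, against 4.94% of all genes tested: CML38, AOS, TCH3 and CML37. Without overlap 12 (66.7%) lay lower, against 21.99% of all genes tested. CML38 (AT1G76650), a calmodulin-like protein, had 6.31, 5.80 and 7.26 in SSY, against 11.26 and 10.89 in ML1Y (-4.62 ± 0.72, adjusted p = 0.00197). AOS (AT5G42650), an early enzyme of jasmonate synthesis, had 7.54, 7.15 and 8.79 in SSY, against 11.47 and 12.72 in ML1Y (-4.27 ± 0.77, adjusted p = 0.005). The summed level of the list was 14.87 to 15.80 in SSY, against 16.68 to 16.92 in ML1Y. These genes answer to cutting and digestion of tissue, and the part of handling in the result was not tested. The auxin response gene IAA2, the peptide genes CLE2 and RALF23 and the kinase CRK14 fell by 2.73, 3.29, 2.81 and 2.83.

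Markers of other cells gave few calls, beside 0.837% called higher and 4.94% lower over all genes tested. Of 10 guard mother cell and guard cell fate genes, FAMA was called higher and 0 were called lower. Their summed level was 11.46 to 13.02 in SSY, against 9.90 to 10.07 in ML1Y, without overlap. Of 17 mature guard cell genes 0 were called, and their summed level was 13.16 to 14.67 in SSY and 13.60 to 13.87 in ML1Y. Of 23 epidermis and cuticle genes and 23 meristem and leaf primordium genes 0 were called. Their summed levels were 14.07 to 16.97 and 10.23 to 11.92 in SSY, against 13.74 to 13.79 and 10.88 to 11.22 in ML1Y. The trichome list summed to 9.41 to 10.82 in SSY, against 9.29 to 9.30 in ML1Y, without overlap, and the xylem and phloem list to 10.41 to 11.04 in SSY, against 10.41 to 10.55 in ML1Y, with overlap. Of 13 myrosinase system genes TGG1 was called higher and ESM1, a modifier of glucosinolate breakdown, lower (-1.78 ± 0.48, limma adjusted p = 0.0452). The myrosinase list summed to 18.76 to 20.72 in SSY, against 16.94 to 17.18 in ML1Y, without overlap. Of 67 mitochondrion-encoded genes, ATMG01410 was called higher and ATMG00370 and ATMG00280 lower.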

How the data were processed

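Sorted protoplasts were sequenced from about 10 ng of total RNA, from 4000 to 20000 cells per replicate, after oligo-dT selection and SPIA amplification, per the labels' protocols. Titles and library fields give RNA sequencing, although a description in the labels speaks of microarrays. The authors deposited normalized log2 expression values, and the submitters' processing notes name Bowtie2, DESeq2 and TAIR10. The transformation, counter and strand setting were not given in the sources used here. Shrunken values would make differences of low genes too small. Depth is unknown, so no counting interval is given. Of 33602 genes 2 had no value.

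Group means of all 11 libraries were fitted with limma-trend (limma 3.58.1, R 4.3.3), two-sided, with Benjamini-Hochberg adjustment over the 29049 genes tested and a threshold of 0.05. Names came from the RefSeq table of TAIR10.1, matched on locus code for 32823 genes, so no coordinates or sequences are printed. Lists and families (50) were counted without a test, and some results are not reported here. Of 355 hand-written list entries, 341 matched 1 locus and the rest were left out.

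Members and lists were chosen with earlier results of these data known. Genes named are the 4 marker line genes; the 20 largest rises with a symbol, no overlap and an SSY mean of at least 5.63 (the median over genes and groups); the 10 largest rises called in every fit; the 8 largest falls with a symbol outside the photosynthesis lists; and up to 4 called members of each list with the smallest adjusted p. The members of the early lineage, xylem, mitosis, repair, heat shock and trichome lists that were not called, MYB57, ABCG31, CYP81D11, Hop3, AT5G48570, NSI, PIP2;5, TOPII, AT3G55258 and the neighbouring genes were named after their values were seen. Same-numbered libraries did not deviate together (correlations 0.019 and 0.015 between SSY and ML1Y), and the main fit did not pair them. With 2 ML1Y libraries this check is weak and does not settle whether same-numbered samples shared a sowing or sort.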

Additional observations from a re-analysis of the deposited data

How the results depend on the processing

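Against 243 genes called higher and 1434 lower by limma, the fit of the 5 libraries alone gave 33 and 899, library weights gave 439 higher (weights 0.503 to 0.605 in SSY and 2.09 in ML1Y), and fits that left out 1 library gave 18 to 509 higher and 285 to 1387 lower. The lowest counts came without ML1Y replicate 2 and the highest count of genes higher without SSY replicate 1. The other filters, the added constant, quantile normalization, median centring and the fit with no mean trend kept both counts within 1.5 times. Median centring moved the median difference over all genes to 0.163, against 0.054, so differences under this scaling are about 0.11 larger. With the replicate number as a replicate block, 192 were higher and 1036 lower. What same-numbered samples share beyond the number is not stated. The 5105 genes higher without overlap became 2231 with the filter at 50, which tested 16704 genes, and 7046 to 7588 without single libraries. The 480 genes above the later sorts became 167 with library weights and 247 with the replicate block, and 222 (without FGF replicate 1) to 685 (without SSY replicate 1) without single libraries. These settings for the last 2 counts were chosen after seeing the data. Of 58 named genes called higher, 21 were also called by the 5-library fit, 17 without ML1Y replicate 1 and 16 without ML1Y replicate 2; of 69 called lower, 49, 35 and 29. No named call changed sign under these settings. Unknown depth limits what can be said of genes near the filter.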
